A study of Mus musculus with 4 samples.

Results

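The genes followed here are 10 long used markers of mouse embryonic stem cells: 4 named developmental pluripotency associated (Dppa2, Dppa3, Dppa4 and Dppa5a), and Utf1, Nr0b1, Tcl1, L1td1, Lin28a and Fbxo15. They were chosen by name from the deposited table of 22883 gene models, taking for each symbol its highest row. Of the 10 genes 9 had 1 row each and are described below, and Fbxo15 was not analysed here. All 9 passed the filter on low values, a mean of at least 0.5 FPKM (fragments per kilobase of gene model, scaled to the size of the library), as did 9336 rows in all.

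Total RNA came from Exosc3 conditional knockout (CKO) embryonic stem cell clones derived from the V6.5 mouse line and grown without feeder cells. The clones depend on doxycycline for Exosc3, a subunit of the RNA exosome, the complex that degrades and trims RNA from its 3′ end. Exosc3-present cells stayed in doxycycline, with the clones maintained at 0.1 µg/ml, and Exosc3-depleted cells were without it for 3 days. Each group had 2 libraries, and both groups carry the same knockout background. Doxycycline and Exosc3 changed together, so their effects cannot be told apart. Separate cultures or clones are not named for the replicates, so p-values measure only the spread between these samples, which may be technical.

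Embryonic stem cells keep their identity through a network of transcription factors around OCT4, SOX2 and NANOG, and the genes described here lie within or just downstream of it. They differ in what they do. Dppa2 and Dppa4 encode a pair of related SAP-domain chromatin proteins that help activate early embryonic genes. Dppa3 (also called Stella) shields DNA from demethylation in the egg and marks germ cell precursors. Nr0b1 (DAX1) is an orphan nuclear receptor and Utf1 a chromatin-bound transcription factor. Lin28a blocks maturation of the let-7 microRNAs, L1td1 is an RNA-binding protein derived from a LINE-1 element, and Dppa5a is a small KH-domain protein. Tcl1 is a coactivator of the kinase AKT.

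RefSeq promoters (GRCm38.p6) were on hand for 5 of the 9 genes, and 3 are shown: those of Tcl1 and Nr0b1, which fell most, and of Utf1, which did not pass the test. Each is the 250 bases before the RefSeq gene start, 5′ to 3′ on the gene's strand. GENCODE M21 places the starts of these genes within the windows, so the last bases shown lie inside the GENCODE genes. Capitals mark GC boxes (GGGCGG, either strand) and the TATA box (TATAAA).
Tcl1, chr12:105222738-105222987, minus strand: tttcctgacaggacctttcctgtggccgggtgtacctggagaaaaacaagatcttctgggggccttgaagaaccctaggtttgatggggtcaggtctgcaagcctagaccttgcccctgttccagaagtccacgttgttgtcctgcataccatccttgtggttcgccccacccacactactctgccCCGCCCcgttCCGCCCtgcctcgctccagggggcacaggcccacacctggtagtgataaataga
Nr0b1, chrX:86191525-86191774, plus strand: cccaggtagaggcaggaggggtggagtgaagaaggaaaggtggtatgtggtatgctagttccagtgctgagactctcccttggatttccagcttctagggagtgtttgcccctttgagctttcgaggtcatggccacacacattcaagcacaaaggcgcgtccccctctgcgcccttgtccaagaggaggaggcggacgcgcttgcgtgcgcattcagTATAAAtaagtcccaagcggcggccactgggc
Utf1, chr7:139943606-139943855, plus strand: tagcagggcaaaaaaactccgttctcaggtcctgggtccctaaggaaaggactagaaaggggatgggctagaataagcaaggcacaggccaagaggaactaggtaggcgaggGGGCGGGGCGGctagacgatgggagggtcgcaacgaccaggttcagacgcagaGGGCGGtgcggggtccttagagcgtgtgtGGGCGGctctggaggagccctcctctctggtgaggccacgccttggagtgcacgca
Tcl1 held 2 GC boxes, Utf1 held 4 (the outermost pair overlapping), and L1td1, Lin28a and Nr0b1 held none. GC boxes stood in 32.7% of 32851 RefSeq promoter windows of that length, and in 63.5% of the windows of 6370 tested genes. Nr0b1 had the TATA box, 32 bases before the RefSeq gene start, a motif found in 12.4% of all windows and 5.78% of those of tested genes. The octamer bound by OCT4 (ATTTGCAT, 1.60% of all windows), a SOX motif (CATTGTT, 3.29%), an ESRRB half-site (CAAGGTCA, 1.33%) and a KLF motif (GGGTGTGG, 3.20%), each searched on both strands, were in none of the 5 windows.

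Lin28a stands in a feedback with let-7, so the matches to its seed are shown as well. The seed (bases 2 to 8) of the mature microRNA is in capitals.
mmu-let-7a-5p: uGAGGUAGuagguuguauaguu
mmu-let-7g-5p: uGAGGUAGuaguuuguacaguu
Among the 3′ untranslated regions of the 9 genes (GENCODE M21, GRCm38, longest coding transcript), only that of Lin28a held the 7 bases that pair with this seed (CTACCTC, gene strand). It held them 2 times, shown with the flanking bases and the match in capitals.
Lin28a, chr4:134005189-134005211, minus strand: gcacagcctgttgaaCTACCTCa
Lin28a, chr4:134004551-134004573, minus strand: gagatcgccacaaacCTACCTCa
Such a match was present in 9.97% of 7895 tested genes with a 3′ untranslated region. The table lists 8 let-7 hairpins, all at 0 in every library, so let-7 itself was not measured.

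Depth was recovered from the spacing of the FPKM values. The totals that scaled the FPKM ran from 38095698 to 60851774 fragments per library, and the 9 genes rested on 363 to 85771 fragments each. Listed gene models held 49.3% and 51.5% of these totals in Exosc3-present libraries and 42.0% and 43.6% in Exosc3-depleted ones. The part of this difference in the changes below was not tested. Exosc3 went from 24.2 and 23.2 FPKM to 0.635 and 0.691, which matched the labels. Of the markers set for embryonic stem cells, Pou5f1, Zfp42 and Esrrb were present in all 4 libraries at 24.7 FPKM or more, and Sox2 and Nanog were not analysed here. The Exosc3-depleted pair differed more than the Exosc3-present pair (SD of the log2 difference 0.43 and 0.19 over tested rows). The median tested row was at a log2 change of -0.27.

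Tcl1, Nr0b1, Lin28a and Dppa5a, 4 of the 9 genes, held less RNA in Exosc3-depleted cells, with falls of 2.04-fold to 6.29-fold in mean FPKM. By limma 0 of the 9 were called higher, while Dppa3 was higher at an unadjusted p under 0.05 and was called by limma-voom on recovered fragments (1 of 9 by each). The other 5 (L1td1, Dppa4, Utf1, Dppa2 and Dppa3) did not pass, and ranged from a log2 change of -0.84 to 0.49. Calls rest on limma with Benjamini-Hochberg adjustment over all 9336 tested rows, at an adjusted p under 0.05, on log2(FPKM + 0.5). By that rule 42.7% of all tested rows were called, 30.1% lower and 12.6% higher, so 4 of 9 lower is not read as particular to these genes. Both Exosc3-depleted libraries lay below both Exosc3-present ones for 6 of the 9 (50.9% of tested rows did so) and above them for 1 (22.2%). The median change of the 9 was -0.84. In bulk RNA, fewer cells that express a gene and less RNA per cell cannot be told apart.

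**Figure D1:**
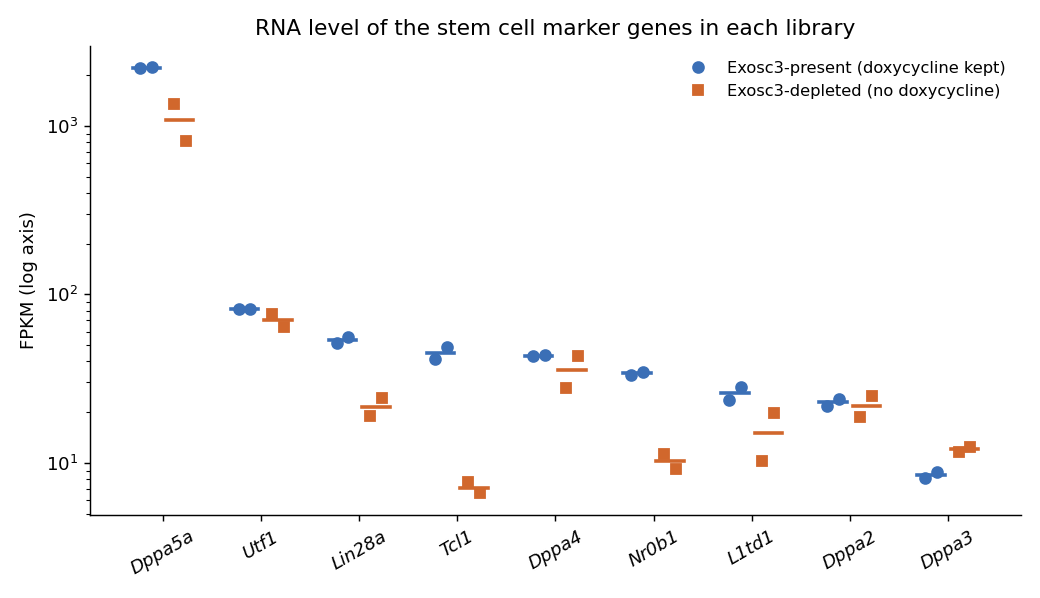
FPKM (log axis) of the 9 genes in each library, ordered by their Exosc3-present mean; circles are the 2 Exosc3-present libraries, squares the 2 Exosc3-depleted ones, and bars the means. Tcl1 drops from 44.9 to 7.14 FPKM, Dppa5a stays the highest in both groups, and 1 of the 2 squares of Dppa2 and of Dppa4 reaches the level of the circles.

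Tcl1, the AKT coactivator, fell furthest. Its row (uc007oyd.2) was at 41.1 and 48.7 FPKM in Exosc3-present cells and at 7.69 and 6.59 in Exosc3-depleted cells. The groups were far apart, with 3488 and 3745 fragments against 408 and 385. The mean went from 44.9 ± 5.3 (SD, n = 2) to 7.14 ± 0.78 (n = 2), 15.9% of its former level (log2 -2.57, SE 0.19, limma adjusted p = 0.000283). A lower change was seen in 0.3% of tested rows.

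Nr0b1, the nuclear receptor, was the next (uc009tsd.1). It was at 33.3 and 34.7 FPKM with Exosc3 and at 11.3 and 9.19 without. Replicates lay close together in both groups. The mean fell 3.32-fold, from 34.0 ± 0.95 to 10.2 ± 1.5 (n = 2 each; log2 -1.69, SE 0.18, limma adjusted p = 0.000811). Utf1, the other chromatin-bound regulator among the single genes, stood at 81.4 and 81.8 FPKM and then at 76.9 and 63.9 (uc009kgf.1). Both later values were below both earlier ones. The difference, log2 -0.22 (SE 0.17), did not pass (limma adjusted p = 0.339), and its 95% interval ran from -0.62 to 0.19. Under 4 other scalings it was slightly positive (0.02 to 0.19) and did not pass either.

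Of the RNA-binding protein genes, Lin28a and Dppa5a fell and L1td1 did not pass. Lin28a (uc008vdw.1) was at 51.6 and 56.1 FPKM in Exosc3-present cells and at 19.0 and 24.2 in Exosc3-depleted cells. It fell 2.50-fold, from 53.9 ± 3.2 to 21.6 ± 3.7 (n = 2 each; log2 -1.31, SE 0.19, limma adjusted p = 0.00217). GENCODE places Gm13061, a noncoding transcript, on the opposite strand across Lin28a. The libraries were stranded, but whether counting used the strand is not given in the sources used here.

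Dppa5a (uc009qug.2) had by far the most RNA of the 9 genes, ranking 33 among all tested rows in Exosc3-present cells and 71 in Exosc3-depleted cells. Its levels were 2206 and 2230 FPKM, then 1357 and 817. The Exosc3-present libraries were nearly equal and the Exosc3-depleted ones far apart, yet both lay below. The mean fell 2.04-fold, from 2218 ± 17 to 1087 ± 382 (n = 2 each; log2 -1.07, SE 0.24, limma adjusted p = 0.0122). This call ended with median-of-ratios scaling (log2 -0.83, adjusted p = 0.054) and with scaling without the 50 highest rows (-0.73, 0.0708). Dppa5a has near-identical pseudogene copies in the mouse genome, so its count is uncertain.

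L1td1 (uc008tuj.1) was at 23.7 and 28.3 FPKM and then at 10.2 and 19.9. All of its Exosc3-depleted values were lower, but the 2 Exosc3-depleted libraries lay as far apart as the groups. The difference of log2 -0.84 (SE 0.30) did not pass (limma adjusted p = 0.0628, 95% interval -1.56 to -0.12). Without Exosc3-depleted replicate 2 it was -1.30, and without Exosc3-depleted replicate 1 it was -0.38. L1td1 was called lower in 4 of the 17 alternative settings, among them the filter at a mean of 2 FPKM (adjusted p = 0.0497) and estimated library weights (0.0161).

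Dppa2 and Dppa4, neighbours on chromosome 16, did not pass, and their Exosc3-depleted libraries were split. Dppa4 (uc007zjl.1) was at 43.1 and 43.4 FPKM and then at 27.7 and 43.4. Dppa2 (uc007zjn.1) was at 21.7 and 24.0 FPKM and then at 18.7 and 24.9. For both, Exosc3-depleted replicate 2 reached the Exosc3-present level and replicate 1 did not, so the groups overlapped. Dppa4 differed by log2 -0.32 (SE 0.23, limma adjusted p = 0.313, unadjusted 95% interval -0.87 to 0.24) and Dppa2 by -0.08 (SE 0.20, adjusted p = 0.778, interval -0.55 to 0.39). These intervals do not reach a fall as large as that of Nr0b1. Without Exosc3-depleted replicate 2, Dppa4 was at log2 -0.63, and without replicate 1 it was at 0.00. The sign of Dppa2 turned positive under 5 other scalings (0.14 to 0.26), and that of Dppa4 under 2 (0.02 and 0.08).

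Because the proteins act together, the ratio of the Dppa2 to the Dppa4 level was set out per library. It was 0.504 and 0.553 with Exosc3, and 0.676 and 0.575 without. Both later ratios were higher, by a mean of 0.24 on the log2 scale. The exact permutation test (two-sided) gave p = 0.333, the smallest that 2 libraries against 2 can give.

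Dppa3 was the 1 gene of the 9 with both Exosc3-depleted libraries above both Exosc3-present ones. Its row (uc009dpn.1) was at 8.12 and 8.81 FPKM and then at 11.6 and 12.4. The means were 8.46 ± 0.49 and 12.0 ± 0.56 (n = 2 each), a ratio of 1.42 (log2 0.49, SE 0.18), and the difference did not pass (limma adjusted p = 0.0617, 95% interval 0.07 to 0.90). Its sign held under all 17 alternative settings, of which 8 called it higher. With median-of-ratios scaling, which moves the median row by 0.22, Dppa3 was at log2 0.72 (adjusted p = 0.0195). Its adjusted p was 0.504 with Exosc3-present replicate 1 left out and 0.398 with replicate 2 left out. Leaving out Exosc3-depleted replicate 1 gave 0.00692, and replicate 2 gave 0.0146. It rested on the fewest fragments in total, 363 to 427 per library.

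**Figure D2:**
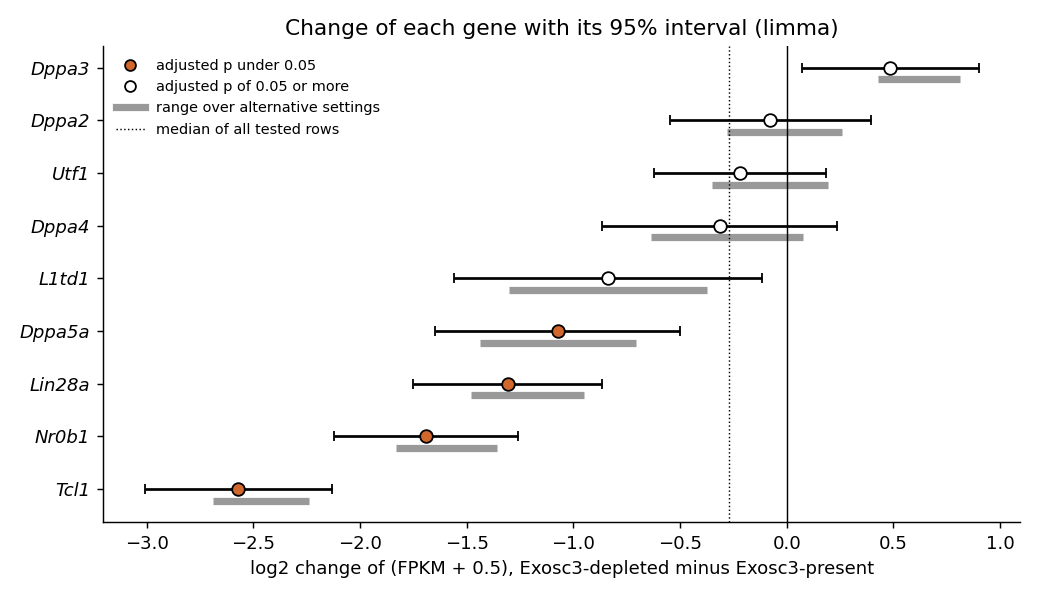
Log2 change of each gene (Exosc3-depleted minus Exosc3-present, FPKM + 0.5) with its 95% limma interval; filled points passed at an adjusted p under 0.05, and grey bars span the 17 alternative settings. The 4 filled points lie between -2.57 and -1.07, while the grey bars of Dppa2, Dppa4 and Utf1 cross 0 and that of Dppa3 stays above it.

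The 2 Exosc3-depleted libraries differed on these genes in both directions. L1td1, Dppa4, Dppa2 and Lin28a were higher in replicate 2, by 0.92, 0.64, 0.40 and 0.34 on the log2(FPKM + 0.5) scale. Dppa5a, Nr0b1, Utf1 and Tcl1 were lower there, at -0.73, -0.28, -0.27 and -0.21. The gap of Dppa5a was lower than in all but 0.4% of tested rows, and that of L1td1 was higher than in 95.9% of them.

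This gap moved with gene model length across all tested rows (Pearson r = 0.35 with log2 length over 9336 rows of the same pair of libraries, a description only). The 2 longest models here, Lin28a (3480 bases) and L1td1 (2942), were higher in replicate 2, and the shortest, Dppa5a (639), was lower. The 500 rows nearest in length had median gaps of 0.23, 0.15 and -0.18. The gaps of L1td1 and Dppa5a were well beyond these medians, and Dppa4 (1534 bases) stood at 0.64 against -0.10. Whether length sets the replicate gaps was not tested. With the length trend removed, the 4 called genes still passed, at log2 -2.35 for Tcl1, -1.47 for Nr0b1, -1.08 for Lin28a and -0.92 for Dppa5a.

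**Figure D3:**
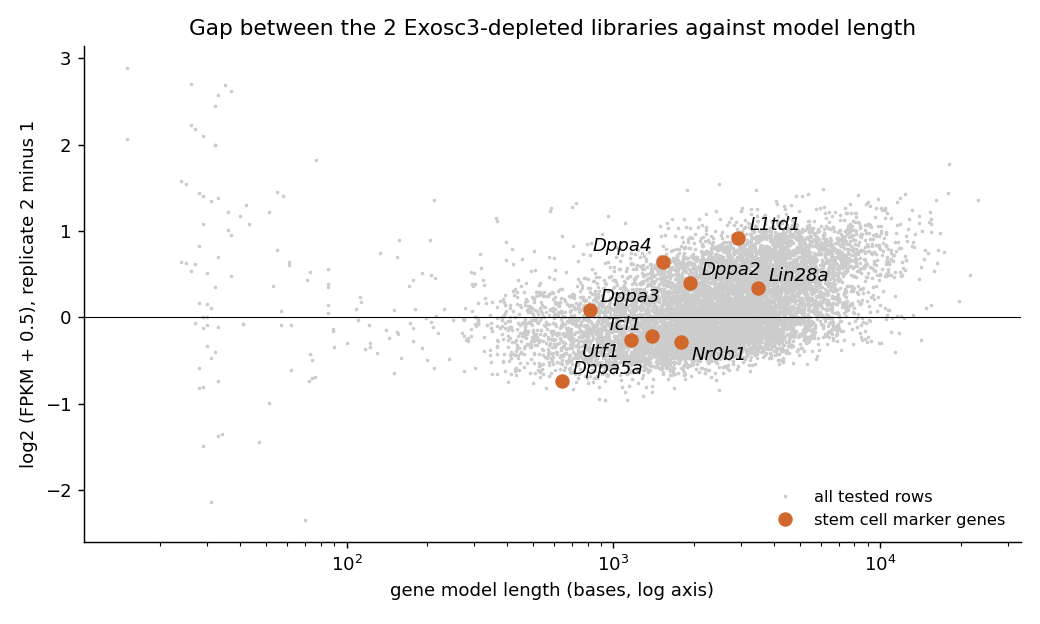
Difference between the Exosc3-depleted libraries (replicate 2 minus 1, log2 of FPKM + 0.5) against model length (log axis) for all tested rows in grey and the 9 genes in orange. L1td1 (0.92) and Dppa5a (-0.73) lie at the upper and lower edge of the cloud, which tilts upward with length.

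The order of the 9 genes by FPKM, a level per length, differed between the groups. In Exosc3-present cells it ran Dppa5a, Utf1, Lin28a, Tcl1, Dppa4, Nr0b1, L1td1, Dppa2, Dppa3. Tcl1 and Dppa4 overlapped there, as did L1td1 and Dppa2. In Exosc3-depleted cells it ran Dppa5a, Utf1, Dppa4, Dppa2, Lin28a, L1td1, Dppa3, Nr0b1, Tcl1. Dppa2, Lin28a and L1td1 each overlapped the next there, and L1td1 also overlapped Dppa2 and Nr0b1. Tcl1 thus went to the last place, from rank 912 to rank 3384 among all tested rows, and Dppa3 went from rank 3485 to 2359.

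Genes whose values ran most like those of Tcl1 were Ccne1 (cyclin E1), Aldoc (aldolase C) and Fgf17 (a fibroblast growth factor). Their distances were 0.07, 0.07 and 0.12, as Euclidean distance over the 4 libraries in centred log2(FPKM + 0.5), among 6628 rows with a mean of at least 2 FPKM. Ccne1 went from 104 and 119 FPKM to 20.6 and 16.9. Those most like Dppa3 were Brd2 (a bromodomain protein), Hist1h3e (a histone H3 gene) and Cyb5r1 (a cytochrome b5 reductase), at distances of 0.04, 0.05 and 0.05. Brd2 went from 32.2 and 33.6 FPKM to 44.9 and 47.8.

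Several of the 9 genes have relatives or early-embryo genes next to them in the RefSeq order. Ooep, an oocyte gene of the same KH-domain family, lies beside Dppa5a and fell from 24.5 and 24.9 FPKM to 11.2 and 9.59 (log2 -1.21, limma adjusted p = 0.00232). Gdf3, a TGF-beta family ligand beside Dppa3, rose from 18.3 and 19.2 FPKM to 33.9 and 26.7 (log2 0.67, adjusted p = 0.0269). Morc1, a germline gene beside Dppa2, fell from 4.74 and 6.23 FPKM to 1.64 and 2.34 (log2 -1.27, adjusted p = 0.00543), although Dppa2 itself did not pass. Dhdds, a dolichol synthesis enzyme beside Lin28a, fell by 0.66 on the log2 scale (adjusted p = 0.0252), and Kndc1, beside Utf1, rose by 0.78 (adjusted p = 0.0119).

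Of 12 relatives by name or by sequence 9 had a row. Lin28b, which also blocks let-7, was low at 0.976 and 0.888 FPKM and then 0.622 and 0.983 (log2 -0.15, limma adjusted p = 0.555). Dppa1, Tcl1b1, Tcl1b3, Tcl1b4 and Tcl1b5 were listed at 0 in all libraries, and Tcl1b2 and Nr0b2 were below 0.3 FPKM. Of the Tcl1 cluster, then, Tcl1 itself carried nearly all measured RNA.

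Core and naive pluripotency factors were mostly lower as well. Of 17 named 13 were tested, of which 8 fell and 0 rose by limma (0 also at an unadjusted p under 0.05 and by limma-voom), with a median log2 change of -1.09 beside -0.27 over all tested rows. With Exosc3-depleted replicate 1 left out 2 rose, and with the length trend removed 1 did. Klf4 fell by 1.57, Prdm14 by 1.80, Esrrb by 1.32 and Zfp42 by 1.51 on the log2 scale. Pou5f1, the gene of OCT4, was at 471 and 434 FPKM and then at 413 and 286 (log2 -0.39, limma adjusted p = 0.167). Of 24 tested other stem cell markers 16 fell and 3 rose (median -0.82). For both lists the share over all tested rows was 30.1% lower and 12.6% higher. Fgf4, a growth factor, fell by 2.33, Mybl2, a cell cycle transcription factor, by 1.53 and Jam2, a junction protein gene, by 1.39. Spp1 (osteopontin) fell from a mean of 49.1 to 14.7 FPKM. Lefty1, an inhibitor of Nodal signalling, rose by 1.12, Otx2 by 0.82 and Gdf3 by 0.67, while Lefty2 fell by 0.99. Of these other markers 10 fell under quantile normalization, where 19.2% of all tested rows did. With scaling without the 50 highest rows 9 fell, beside 14% of all tested rows. Their median change was -0.71 with Exosc3-present replicate 2 left out.

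Of 20 tested genes of the let-7 pathway and its known targets 7 fell, near the 30.1% of all tested rows, and 1 rose (median -0.44). The median was -0.16 with Exosc3-depleted replicate 1 left out and -0.14 with scaling without the 50 highest rows. E2f2 fell by 2.32, the phosphatase gene Cdc25a by 1.68 and the chromatin protein gene Hmga1 by 0.97. E2f2 passed the filter only through its Exosc3-present level, with means of 3.26 FPKM in Exosc3-present and 0.251 in Exosc3-depleted cells. Igf2bp2, an RNA-binding protein, went from a mean of 6.93 to 1.29 FPKM (log2 -2.06). Mycn rose by 0.92. The ubiquitin ligase gene Trim71 was at 19.7 and 24.0 FPKM and then at 15.3 and 24.9, and did not pass (limma adjusted p = 0.656). The median of the let-7 list was -0.46 and -0.43 without Exosc3-present replicate 1 or 2, and -0.69 without Exosc3-depleted replicate 2. The list of partners was set for the proteins of all 10 genes, Fbxo15 included, and Esrrb, Nr5a2, Jarid2 and Trim71 also stand in other lists. Of 15 tested partners 7 fell and 0 rose by limma, at an unadjusted p under 0.05 or by limma-voom (median -0.47). Over all tested rows 30.1% were lower and 12.6% higher. Those with the smallest p were Uhrf1, the DNA methylation cofactor that Dppa3 protein binds, at log2 -1.82, Esrrb, Ezh2 at -1.30 and Rbx1 at -0.80. Akt1 and Akt2, kinases that Tcl1 protein activates, were at log2 -0.02 and 0.09 and did not pass. Of the partners 2 fell with scaling without the 50 highest rows, where 14% of all tested rows did. Under both quantile normalization and limma-voom 4 fell, beside 19.2% and 19.6% of all tested rows. The median change of the partners was -0.59 and -0.34 without Exosc3-present replicate 1 or 2. It was -0.31 and -0.72 without Exosc3-depleted replicate 1 or 2.

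The 2-cell-like genes, which Dppa2 and Dppa4 proteins help to activate, had 13 rows of 20 named, of which 7 were tested and 6 rose. Zscan4e went from a mean of 0.227 to 8.32 FPKM (log2 3.60, limma adjusted p = 0.000138). Zscan4b, Zscan4c and Zscan4d rose likewise (3.26, 3.37 and 3.02), but these copies are near identical. They, Zscan4f and Gm4340, the 6 that rose, passed the filter only through their Exosc3-depleted level. Dux stayed at or below 0.247 FPKM in every library. Among germ cell markers, which Dppa3 belongs to, 3 of 11 tested rose and 2 fell (median 0.03). Of all tested rows 12.6% rose and 30.1% fell. The germ cell markers summed to 21.99 and 26.3 FPKM and then to 16.9 and 22.3. Nanos3 rose by 1.16, Rhox6 by 0.76 and Rhox9 by 0.63 on the log2 scale, and Kit fell by 1.58. Rhox6 passed the filter only through its Exosc3-depleted level, with means of 0.341 and 0.926 FPKM. With either Exosc3-present library left out 1 rose, and with Exosc3-depleted replicate 2 left out 4 fell. With Exosc3-depleted replicate 1 left out, with limma-voom and with the length trend removed 5 rose.

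Markers of other cell types moved with the groups, beside 30.1% of all tested rows lower and 12.6% higher. Of 7 tested trophectoderm markers (10 had a row) 6 rose and Eomes fell (log2 -0.57). The smallest p were those of Krt19 (log2 2.56), Krt8 (2.29), Hand1 (1.46) and Krt18 (1.97). The summed level of the 10 markers went from 26.3 and 28.9 FPKM to 146 and 111, most of it from Krt8, Krt18 and Krt19. Elf5 was at 0 in both Exosc3-depleted libraries, and Gata3 and Cdx2 were under 0.25 FPKM throughout. Of 11 tested primitive endoderm markers (13 had a row) 8 rose and Amn fell (log2 -0.85). The smallest p were those of Col4a2 (2.24), Col4a1 (1.96), Sparc (1.36) and Sox17 (0.94). Hand1, Sox17, Gata6 and Pdgfra passed the filter only through their Exosc3-depleted level, and Eomes only through its Exosc3-present level. With the filter at a mean of 2 FPKM, 3 of 3 tested trophectoderm and 4 of 5 primitive endoderm markers rose. The sum of the 13 primitive endoderm markers went from 87.2 and 110 FPKM to 221 and 223, most of it from Lama1, Lamb1, Col4a1, Col4a2 and Sparc. Gata4, Gata6, Sox17, Sox7 and Foxa2 reached at most 2.011 FPKM in any library (Gata4, Exosc3-depleted replicate 1). With Exosc3-present replicate 1 left out 4 rose, and with replicate 2 left out 3 did.

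Of 7 tested primed and early neural markers (11 had a row) 5 rose, led by Neurod1 (2.73), Nes (2.34) and Cdh2 (1.87), and Tubb3 (-1.86) and Dnmt3b (-1.21) fell. For this list and the fibroblast list below, the share over all tested rows was 12.6% higher and 30.1% lower. With either Exosc3-present library left out 3 rose. The sum of the 11 markers went from 131 and 135 FPKM down to 65.2 and 75.5, most of it from Tubb3 and Dnmt3b, which fell. Tubb3 went from a mean of 79.1 to 21.5 FPKM and Dnmt3b from 45.6 to 19.5, so the sum does not show the genes that rose. Fibroblast markers summed to 7.13 and 7.92 FPKM and then to 12.1 and 9.0, with Dcn, Lum and Postn at 0 throughout. Of 4 tested, Twist1 (1.17) and Mmp2 (0.99) rose, Thy1 (-2.01) fell and Col1a1 (0.42) did not pass. Neurod1, Cdh2, Twist1 and Col1a1 passed the filter only through their Exosc3-depleted level, and Thy1 only through its Exosc3-present level. A gene low in Exosc3-present cells could enter these counts only with a higher Exosc3-depleted level. The part of other cell types in the falls of the stem cell markers was not tested.

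**Figure D4:**
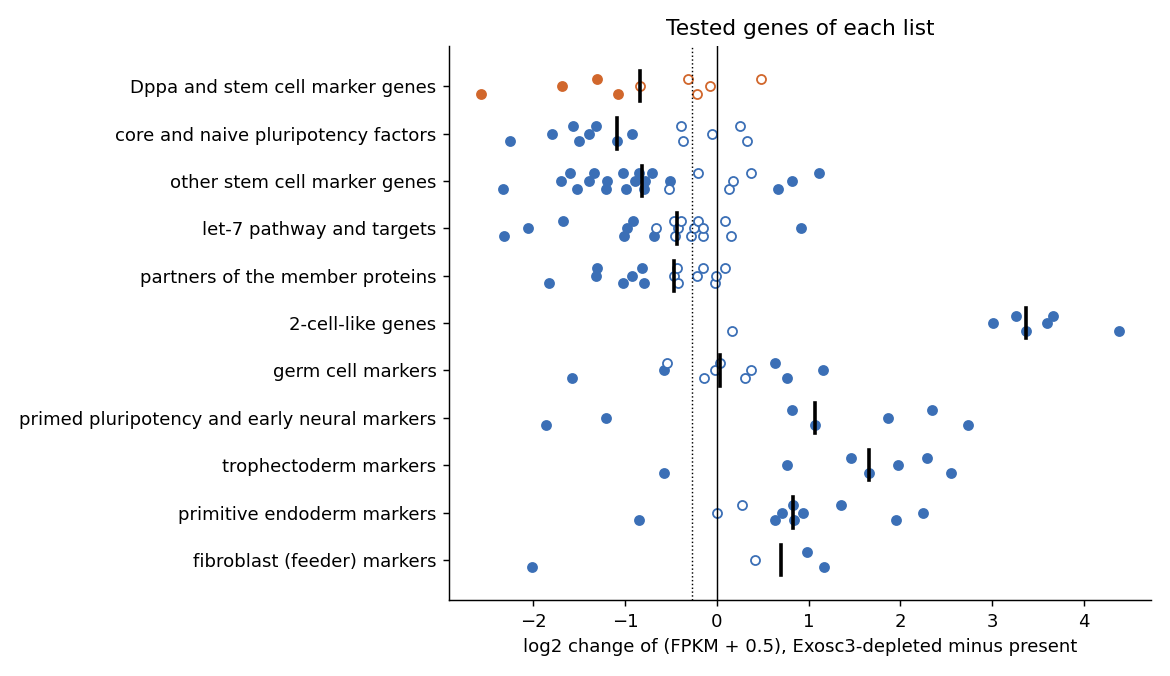
Log2 change of every tested gene (points, filled where the adjusted p was under 0.05) in the 9 genes (orange) and 10 other lists (blue), with list medians as black bars, 0 as a solid line and the median tested row (-0.27) dotted; a gene can stand in more than 1 list. Medians of pluripotency lists lie left of the dotted line, at -1.09 and -0.82, and those of trophectoderm and 2-cell-like genes right of 0.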

How the data were processed

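RNA-seq libraries were stranded, depleted of ribosomal RNA and read in paired ends, per the labels' protocols. The 4 sample columns of the table the authors deposited hold FPKM, per the file headers. Without roles, the submitters' processing notes list mm9, Bowtie2, STAR, Picard, bedtools and edgeR, so the step that made the FPKM is not given in the sources used here. Model lengths and whole fragments were worked out from the steps between values (tolerance 0.004 of a fragment, wider at high counts), and lengths of very low rows are not secured. They served depth, the length trend and a limma-voom alternative.

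Groups were compared in R 4.3.3 by limma 3.58.1 on log2(FPKM + 0.5). The fit used a mean-variance trend, no covariates, and the 9336 rows whose FPKM averaged 0.5 or more. Values were two-sided and Benjamini-Hochberg adjusted (threshold 0.05), and the scale understates changes of low genes.

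The members and gene lists were chosen with earlier results of these data known. Named genes are the 9 genes, the 4 tested genes with the smallest p in each list, the 3 rows most like Tcl1 and Dppa3, and Exosc3; neighbours and other examples were chosen after their values were seen. Promoters, microRNAs and gene models came from RefSeq and GENCODE M21 (GRCm38), matched by symbol for 9 genes, and differ in build from mm9.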

Additional observations from a re-analysis of the deposited data

How the results depend on the processing

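Calls for the 9 genes, all tested rows and the gene lists were recomputed under 17 alternatives, of which 3 (limma-voom on recovered fragments, removal of the length trend and estimated library weights) were chosen after seeing the data. Tcl1, Nr0b1 and Lin28a were called lower in all 17 and Dppa5a in 15. The number of the 9 genes called lower was 3 to 6, and 4 to 6 with 1 library left out. The number called higher was 1 (Dppa3) with median-of-ratios scaling, quantile normalization, scaling without the 50 highest rows, the replicate block, limma-voom and the length trend removed, and 0 to 1 with 1 library left out. With the replicate number as a block, 5 of the 9 were lower, L1td1 being added (adjusted p = 0.000284), and Dppa3 passed (0.0483), but that fit has 1 residual degree of freedom, the labels give shared numbers only, and deviations of same-numbered libraries correlated at 0.24.

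Signs that turned were those of genes not called. Dppa2 was at log2 0.16 with median-of-ratios scaling, 0.25 with quantile normalization, 0.26 without the 50 highest rows, 0.16 with limma-voom, 0.14 with the length trend removed, and -0.28 to 0.12 with 1 library left out. Dppa4 was at 0.0762 with quantile normalization, 0.0236 without the 50 highest rows, and -0.63 to 0.00 (0.0036) with 1 library left out. Utf1 was at 0.0266 with median-of-ratios scaling, 0.19 with quantile normalization, 0.12 without the 50 highest rows and 0.016 with limma-voom. Each of these scalings also moved the median row upward, by 0.19 to 0.31. The Dppa2 to Dppa4 log2 ratio differed by 0.12 to 0.36 with 1 library left out.

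Over all tested rows, 2806 were lower and 1177 higher. Lower rows numbered 1830 with median-of-ratios scaling, 1792 with quantile normalization, 1311 without the 50 highest rows and 1829 with limma-voom. Higher rows numbered 667 with a filter at 2 FPKM and 1933 with the length trend removed. With 1 library left out, 1040 to 4808 were lower and 719 to 2123 higher. Of called rows 29.6% were higher, against 47.4% with median-of-ratios scaling, 46.9% with quantile normalization, 54.7% without the 50 highest rows, 46.3% with limma-voom and 45.9% with the length trend removed. In the other lists together 42 genes were lower and 33 higher, beside 30.1% lower and 12.6% higher over all tested rows. Among the higher ones were the genes named above that passed the filter only through their Exosc3-depleted level. Lower genes were 26 without the 50 highest rows and 25 to 59 with 1 library left out, and higher genes were 21 with the filter at 2 FPKM and 22 to 38 with 1 library left out. After such an omission the spread comes from the intact pair alone, and 2 libraries a group limit every call; for the remaining shifts the cause was not tested.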
